A study of Mus musculus with 10 samples.

Results

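*Lyl1*, *Tal1*, *Lmo2*, *Gata2*, *Gfi1b*, *Hhex*, *Mef2c*, *Bcl11a* and *Mycn*, 9 transcription regulators of blood stem and progenitor cells, were followed by RNA-seq through the first stages of T cell development ex vivo. They were chosen by name, as progenitor factors whose shutdown before T lineage commitment is in question, and are 9 of the 24062 genes in the count files. All 9 were among the 12221 genes with a level of 1 CPM or more in at least 2 libraries, CPM being a gene's counts scaled to library size. LSK cells (Lin-SCA1+KIT+ bone marrow progenitors) of C57BL/6J mice had been cultured with stem cell factor, FLT-3 ligand, IL-6 and IL-11. The DN1 (KIT++CD44+CD25-) cells, with 2 libraries, were sorted from cultures on immobilized Delta1, a Notch ligand, coated at 5 µg/mL and without IL-7. The DN2a (KIT++CD44+CD25+) and DN2b (KIT+CD44loCD25+) cells, with 2 libraries each, came from Delta1 cultures that also received 100 ng/mL IL-7, which ties stage to IL-7 in these libraries. The no Notch control, labelled WT and IgG, comprised 4 libraries of cells grown on human IgG1 at 5 µg/mL and harvested on day 14, for which no sort is given in the sources used here. Whether the control received IL-7, and on which day the DN cells were sorted, is not given in the sources used here. By the study's methods, IL-7 was added to the Delta1 cultures at day 14, the day the control was harvested. The DN2 cells were therefore cultured for longer than the control. The control is a culture without Notch ligand and not the starting LSK population, for which no RNA library was analysed here. Per the study's methods, replicates derive from independent LSK isolates, and the 3 DN stages were taken from each such isolate, but which DN libraries share one is not given.

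TAL1 and LYL1 are related basic helix-loop-helix proteins that bind DNA together with an E protein, and LMO2 bridges them through LDB1 to GATA factors such as GATA2. GFI1B is a zinc finger repressor of megakaryocyte-erythroid progenitors, HHEX a homeobox factor, MEF2C a MADS-box factor of lymphoid and myeloid progenitors, BCL11A a zinc finger repressor needed in lymphoid progenitors, and MYCN a MYC relative that stem cells use beside MYC. In thymocytes, such factors belong to a program inherited from progenitors, and TAL1, LYL1, LMO2 and MEF2C are known as T cell leukemia oncogenes when they stay on in T cell precursors.

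Between 12354635 and 35367925 reads per library were counted on genes, so 3 counts, taken as the detection floor, correspond to between 0.0880 and 0.239 CPM. Of the sorting markers, *Il2ra* and *Cd44* separated the stages and *Kit* did so in part. *Il2ra*, which encodes CD25, averaged 21.1 ± 2.99 CPM (SD, n = 2) in DN1, 1396 ± 320 CPM in DN2a and 1951 ± 316 CPM in DN2b, and *Cd44* averaged 138 ± 30.3 CPM in DN1 and 12.2 ± 1.82 CPM in DN2b and stood at 44.3 and 54.2 CPM in DN2a, below DN1 although both were sorted as CD44+. *Kit* stood at 368 and 319 CPM in DN1, 173 and 212 CPM in DN2a, and 130 and 176 CPM in DN2b, so that DN2a overlapped DN2b and lay below DN1, with which it shares the KIT++ gate. A pair of libraries stood apart in markers of other cell types. DN1 replicate 1 had a summed level of 2302 CPM for 12 mast cell and basophil markers against 598 CPM in DN1 replicate 2, 113 to 288 CPM in the control and 259 to 582 CPM in DN2, with 11 of the 12 markers higher than in its replicate. Of that sum, 2237 CPM came from the 5 markers that lay above all controls there (*Cpa3*, *Mcpt4*, *Fcer1a*, *Ms4a2* and *Il1rl1*, the last 2 named after values were seen), while 4 of the 12 lay within the control range and 3 below it. Its 14 erythroid and megakaryocyte markers summed to 571 CPM against 134 CPM in DN1 replicate 2 and 276 to 1120 CPM in the control. Of the 14, 10 were higher than in its replicate and 3 were at 0. The control sum was mostly *Pf4* (219 to 947 CPM), a platelet chemokine gene, and 7 of the 14 markers, with 514 CPM, lay above all controls in DN1 replicate 1, while 4 lay within their range and 3 below it. Its 12 macrophage and granulocyte markers summed to 1819 CPM against 153 CPM in DN1 replicate 2 and at least 25100 CPM in each control. DN2b replicate 2 had a summed level of 124 CPM for 10 endothelial markers, a list drawn up after values were seen, against 1.27 CPM in DN2b replicate 1, and all 10 were higher, including *Tek* and *Tie1*, which are also on the list of stem cell surface genes. That sum lay between 4.08 and 46.8 CPM in the DN1 and DN2a libraries and between 11.9 and 19.9 CPM in the control.

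Among the components of the TAL1 complex, *Tal1* stood at 37.5, 18.6, 43.4 and 26.3 CPM in the 4 control libraries, 131 and 67.8 CPM in DN1, 13.3 and 21.2 CPM in DN2a, and 7.47 and 23.9 CPM in DN2b. Both DN1 libraries lay above all others, and the DN2 libraries overlapped the lower controls. *Lmo2* stood at 98.9, 127, 124 and 107 CPM in the control, 140 and 59.1 CPM in DN1, 4.58 and 7.79 CPM in DN2a, and 1.60 and 7.16 CPM in DN2b. The 4 DN2 libraries held the lowest *Lmo2* levels, whereas the DN1 libraries enclosed those of the control. *Gata2* stood at 4.76, 21.1, 3.35 and 8.75 CPM in the control, 168 and 15.6 CPM in DN1, 3.61 and 2.004 CPM in DN2a, and 2.27 and 4.38 CPM in DN2b. Its high level belonged to 1 library, DN1 replicate 1, since DN1 replicate 2 fell within the control range. *Lyl1* stood at 62.5, 84.0, 112 and 112 CPM in the control, 128 and 77.2 CPM in DN1, 116 and 123 CPM in DN2a, and 103 and 55.9 CPM in DN2b. The ranges of control, DN1 and DN2b libraries overlapped for *Lyl1*.

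*Gfi1b* stood at 1.23, 6.59, 0.939 and 1.40 CPM in the control, 58.7 and 19.3 CPM in DN1, 13.8 and 27.2 CPM in DN2a, and 4.002 and 3.58 CPM in DN2b. DN1 and DN2a overlapped each other and lay above control and DN2b libraries. *Bcl11a* stood at 5.21, 13.5, 6.34 and 13.2 CPM in the control, 92.2 and 80.2 CPM in DN1, 16.1 and 22.9 CPM in DN2a, and 6.60 and 9.31 CPM in DN2b. Its 3 DN stages did not overlap, and DN2b lay within the control range. *Mycn* had 3, 9, 1 and 6 counts in the control (0.168, 0.415, 0.0293 and 0.183 CPM), near the floor, against 56.9 and 36.4 CPM in DN1, 14.5 and 30.8 CPM in DN2a, and 5.54 and 10.9 CPM in DN2b. All 6 DN libraries lay above all 4 controls, and the stages did not overlap one another.

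*Hhex* stood at 63.4, 82.5, 67.7 and 40.7 CPM in the control, 122 and 110 CPM in DN1, 48.9 and 66.0 CPM in DN2a, and 29.1 and 37.7 CPM in DN2b. DN1 lay above every other library and DN2b below every other library. *Mef2c* stood at 70.8, 43.7, 69.6 and 57.6 CPM in the control, 43.6 and 68.9 CPM in DN1, 4.72 and 3.56 CPM in DN2a, and 1.93 and 18.1 CPM in DN2b. DN1 and control libraries overlapped, and all 4 DN2 libraries lay below them.

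**Figure D1:**
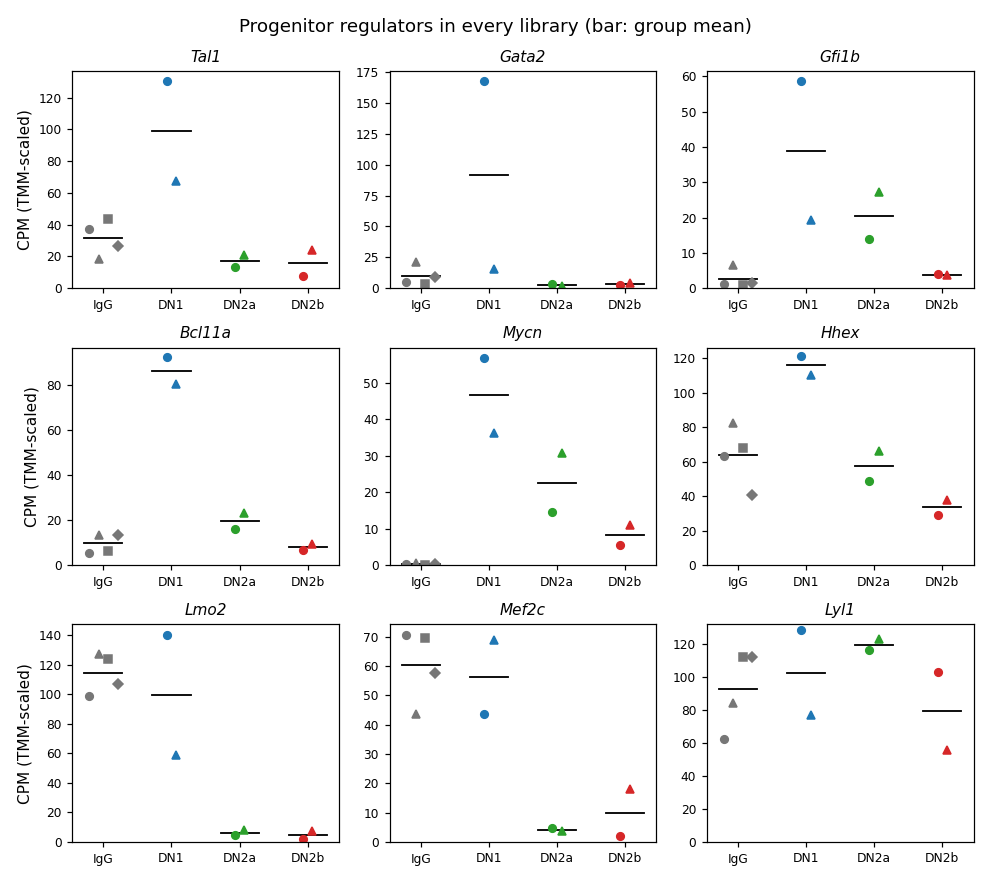
TMM-scaled CPM (linear axis, from 0) of each of the 9 regulators in every library, by group, with the bar at the group mean and marker shapes for replicates (circle 1, triangle 2, square 3, diamond 4). *Tal1*, *Bcl11a*, *Mycn* and *Hhex* peaked in both DN1 libraries, *Gata2* in DN1 replicate 1 (168 CPM), *Lmo2* and *Mef2c* were low in all DN2 libraries, and *Lyl1* was between 55.9 and 128 CPM throughout.

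The promoter sequences below are shown because *Tal1*, *Gfi1b*, *Bcl11a* and *Mycn* were higher in both DN1 libraries than in every control. *Hhex* was too, but in its window an annotated exon left 0 bases to show. RefSeq (GRCm38.p6, the mm10 assembly) gave start sites for 8 of the 9 genes and 12 windows of 250 bases before a start site. The sequences run 5′ to 3′ on the gene's strand, stop where an exon annotated by GENCODE vM21 begins, and have letters of a searched motif in capitals. The 4 motifs, searched on both strands, were GATAA (GATA factors), CAGCTG and CAGATG (E-boxes bound by TAL1 or LYL1 with an E protein) and TGGGAA (RBPJ, the DNA-binding partner of Notch). The windows are the first *Tal1* start site (chr4:115056176-115056425, plus strand), *Gfi1b* (chr2:28621983-28622232, minus strand), *Bcl11a* (chr11:24080445-24080669, plus strand) and *Mycn* (chr12:12941915-12942086, minus strand).
Tal1: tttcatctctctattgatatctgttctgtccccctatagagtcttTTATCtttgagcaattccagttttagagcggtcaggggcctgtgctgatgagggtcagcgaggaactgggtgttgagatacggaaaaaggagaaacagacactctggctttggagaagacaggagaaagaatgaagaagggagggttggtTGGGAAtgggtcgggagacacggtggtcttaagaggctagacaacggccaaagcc
Gfi1b: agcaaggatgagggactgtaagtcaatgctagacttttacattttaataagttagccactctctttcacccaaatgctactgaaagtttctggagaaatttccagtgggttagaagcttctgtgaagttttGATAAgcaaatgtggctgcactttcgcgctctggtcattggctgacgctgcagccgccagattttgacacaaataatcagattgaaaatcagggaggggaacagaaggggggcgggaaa
Bcl11a: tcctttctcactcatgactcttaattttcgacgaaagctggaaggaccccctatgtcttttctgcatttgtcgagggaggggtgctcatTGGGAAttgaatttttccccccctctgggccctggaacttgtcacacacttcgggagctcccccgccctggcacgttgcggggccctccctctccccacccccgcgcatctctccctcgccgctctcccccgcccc
Mycn: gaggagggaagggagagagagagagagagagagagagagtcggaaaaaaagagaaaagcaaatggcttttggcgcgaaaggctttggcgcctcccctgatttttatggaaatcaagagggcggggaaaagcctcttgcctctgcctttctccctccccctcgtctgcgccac
In the *Tal1* window the capitals mark a GATAA match on the opposite strand and a TGGGAA match. The window of the other *Tal1* start site (chr4:115057561-115057810), not printed, holds none of the 4 motifs. The bases just after the start site were found in a GENCODE transcript for *Gfi1b*, *Mycn* and that other *Tal1* site. They were not for the *Tal1* and *Bcl11a* windows shown. The *Gfi1b* window holds GATAA, that of *Bcl11a* holds TGGGAA, and the *Mycn* window holds none of the 4 motifs. GATAA was in 3 of the 12 windows and in 22.6% of 32851 promoters of that length, TGGGAA in 2 of 12 against 21.6%, CAGATG in 1 of 12 against 14.4%, and CAGCTG in 0 of 12 against 13.0%. A match to so few letters describes the window and is not a measured binding site.

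DN1 versus the no Notch control asks which of these regulators were higher in sorted cells grown on Notch ligand. The groups also differ in the DN1 sort, and a difference in IL-7 or culture day cannot be told apart from that of the ligand. Of the 9, 6 were higher in DN1 at an adjusted p under 0.05 and none lower, where 31.4% of all tested genes were called in either direction and 14.3% of all tested genes as higher. The cell makeup also differed: all 12 tested macrophage and granulocyte markers were lower in DN1 (median log2FC -5.39), their sum being 25100 to 67000 CPM in the control against 1819 and 153 CPM in DN1, and the part of this in the result was not tested. *Mycn* rose 240-fold (log2FC 7.91 ± 0.70 SE, adjusted p = 0.000186), *Gfi1b* 15.4-fold (3.95 ± 0.78, adjusted p = 0.00594) and *Bcl11a* 8.99-fold (3.17 ± 0.40, adjusted p = 0.000915). The *Mycn* fold rests on control libraries of at most 9 counts, and its log2FC was 8.53 without control replicate 2. That of *Gfi1b* was 2.93 without DN1 replicate 1 (adjusted p = 0.0451), 4.54 without DN1 replicate 2 and 5.02 without control replicate 2. *Tal1* was higher by a log2FC of 1.66 ± 0.48 (adjusted p = 0.0292), *Hhex* by 0.87 ± 0.28 (adjusted p = 0.0411) and *Gata2* by 3.27 ± 0.88 (adjusted p = 0.0213). The differences of *Lyl1* (0.15 ± 0.34), *Lmo2* (-0.20 ± 0.51) and *Mef2c* (-0.11 ± 0.63) were smaller than their standard errors. The median log2FC of the 9 was 1.66, against 0.01 over all tested genes, and 5 of the 9 had DN1 libraries above all controls, beside 23.5% of tested genes. Here, as in every comparison of these bulk libraries, fewer cells that express a gene and less RNA per cell cannot be told apart.

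The *Gata2* difference rested on DN1 replicate 1, the library with the high mast cell sum. Its level there was 10.8 times that in DN1 replicate 2, a wider gap than in all but 0.794% of tested genes. Without that library, *Gata2* (log2FC 0.72), *Tal1* (1.11) and *Hhex* (0.79) were not called, while *Mycn*, *Gfi1b* and *Bcl11a* kept their calls. In the same library *Gata1*, which encodes the GATA factor of erythroid, megakaryocyte and mast cells, stood at 79.7 CPM against 1.89 CPM in DN1 replicate 2. *Klf1*, an erythroid factor, stood at 51.5 against 0.598 CPM, and *Epor*, the erythropoietin receptor, at 39.0 against 0.548 CPM (both chosen after values were seen). *Mcpt4*, a mast cell protease, stood at 800 against 133 CPM, *Fcer1a*, an IgE receptor chain, at 268 against 62.0 CPM and *Cpa3*, a mast cell carboxypeptidase that progenitors also express, at 986 against 333 CPM. The part of such cells in the *Gata2* and *Tal1* levels was not tested. The *Hhex* call was lost in 8 of the 10 fits that left out 1 library each, with a log2FC between 0.70 and 1.01, and without control replicate 2 or 4 *Tal1* had an adjusted p of 0.0529 or 0.0611. Without control replicate 3, that of *Gata2* was 0.0506, and its log2FC was 4.02 without control replicate 2 and 4.15 without DN1 replicate 2. With controls D1 and D2 (replicates 1 and 2) alone, *Tal1* (adjusted p = 0.0923), *Hhex* (0.139) and *Gata2* (0.121) were not called.

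**Figure D2:**
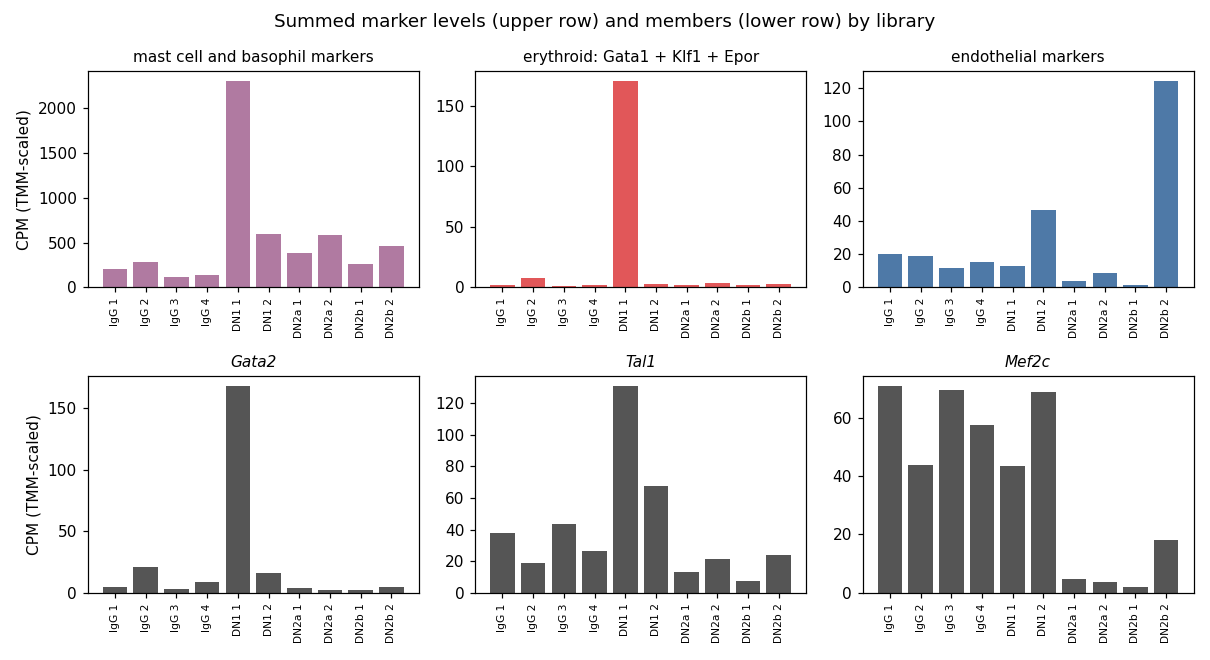
TMM-scaled CPM per library (bars from 0; IgG 1 to 4, DN1, DN2a and DN2b 1 and 2) of summed mast cell and basophil, erythroid (*Gata1*, *Klf1*, *Epor*) and endothelial markers in the upper row, and of *Gata2*, *Tal1* and *Mef2c* in the lower row. The mast cell sum (2302 CPM) and the sum of the 3 erythroid genes (170 CPM) were highest in DN1 replicate 1, as were *Gata2* and *Tal1*. *Klf1* and *Epor* were picked for this sum after values were seen, and the whole list of 14 erythroid and megakaryocyte markers was highest in control replicate 3 (1120 CPM, of which *Pf4* was 947 CPM), with 7 of the 14 above all controls in DN1 replicate 1. The endothelial sum (124 CPM) was highest in DN2b replicate 2, whose *Mef2c* (18.1 CPM) exceeded that of the other DN2 libraries.

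DN2a versus DN1 and DN2b versus DN1 follow the same regulators towards commitment, with IL-7 in the DN2 cultures alone. In DN2a, 7 of the 9 had both libraries below both DN1 libraries (22.4% of tested genes did), the exceptions being *Lyl1* and *Gfi1b*, and the median log2FC was -2.14 against -0.03 over all genes. In DN2b, 8 of the 9 lay below DN1 without overlap (22.1% of tested genes did), *Lyl1* being the exception, and the median was -2.67 against -0.02. Few genes passed the adjusted threshold in these comparisons of 2 libraries with 2. *Lmo2* alone of the 9 passed in DN2a, where 0.401% of tested genes were called and 0.205% called as lower. It was 16.2-fold lower (log2FC -4.02 ± 0.67, adjusted p = 0.0494), a call lost in 7 of the 10 fits that left out 1 library each, with an adjusted p of up to 0.479 and a log2FC between -4.51 and -3.27. *Mef2c* had a log2FC of -3.75 ± 0.82 (adjusted p = 0.117) and was called in 5 of 19 other settings, among them DESeq2 (adjusted p = 0.000104), the fits without either DN2b library (0.0206 and 0.0198) and the 2 groups alone (0.0264), where *Lmo2* was not called (0.0626). *Gata2* had -5.01 ± 1.24 (adjusted p = 0.163), with -2.46 (adjusted p = 0.885) without DN1 replicate 1 and -5.88 (adjusted p = 0.0328) without replicate 2. The log2FC was -2.53 ± 0.62 for *Tal1* (adjusted p = 0.157), -2.14 ± 0.50 for *Bcl11a* (adjusted p = 0.139), -1.05 ± 0.67 for *Mycn* (adjusted p = 0.624) and -1.01 ± 0.33 for *Hhex* (adjusted p = 0.296). Markers of other cell types moved with these comparisons. Against DN1, the median log2FC of 12 mast cell and basophil markers was -4.51 in DN2a (0 called) and -6.38 in DN2b (4 called as lower), that of 12 macrophage and granulocyte markers -4.35 (2 called as lower) and -5.49 (6 called as lower), and that of 9 tested erythroid and megakaryocyte markers -4.76 and -4.45 (0 called in either). Their part in the results was not tested.

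In DN2b versus DN1, 3 of the 9 passed, all as lower, where 1.91% of tested genes were called and 0.892% called as lower. *Lmo2* was 22.9-fold lower (log2FC -4.52 ± 0.69, adjusted p = 0.0156), *Bcl11a* 10.8-fold lower (-3.44 ± 0.53, adjusted p = 0.0157) and *Hhex* 3.47-fold lower (-1.79 ± 0.34, adjusted p = 0.034). At an unadjusted p under 0.05, 8 of the 9 were lower, *Lyl1* being the exception, and 13.9% of all tested genes passed that threshold in either direction. *Gata2* had a log2FC of -4.79 ± 1.23 (adjusted p = 0.104), *Gfi1b* of -3.36 ± 0.996 (adjusted p = 0.154), *Tal1* of -2.67 ± 0.62 (adjusted p = 0.0739), *Mycn* of -2.51 ± 0.71 (adjusted p = 0.134) and *Mef2c* of -2.50 ± 0.78 (adjusted p = 0.168). *Lyl1* had a log2FC of -0.37 ± 0.39 (adjusted p = 0.737). Without DN1 replicate 1, which left DN1 with 1 library, *Lmo2* had a log2FC of -3.76, *Bcl11a* of -3.33 and *Hhex* of -1.72. No call among the 9 was then kept by edgeR. Without DN1 replicate 1, *Gata2* had a log2FC of -2.23 (adjusted p = 0.687) and *Gfi1b* of -2.34 (adjusted p = 0.696), and without DN1 replicate 2 *Gata2* was called (-5.66, adjusted p = 0.0288). Over the 10 fits that left out 1 library each, the *Hhex* call was lost in 8 (adjusted p up to 0.255), that of *Bcl11a* in 3 (without DN1 replicate 1 or either DN2b library, adjusted p up to 0.143) and that of *Lmo2* in 1. In the 6 DN libraries alone, *Lmo2* had an adjusted p by edgeR of 0.0829 with a replicate block and 0.0537 without it. The same fits gave it 0.177 and 0.137 in DN2a versus DN1, so neither call was kept. DESeq2 called 8 of the 9 in this comparison, beside 820 of 12192 genes, and 5 of the 9 in DN2a versus DN1, beside 467.

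**Figure D3:**
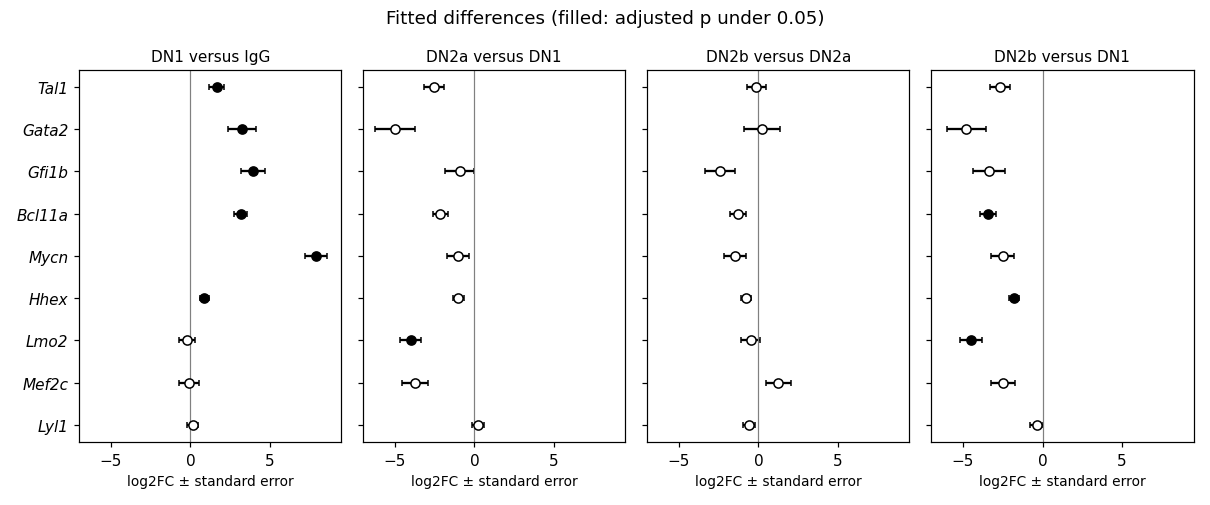
Fitted log2FC (points) and standard error (bars) of the 9 regulators in 4 comparisons, with filled points at an adjusted p under 0.05. DN1 versus IgG has 6 filled points at positive values, DN2a versus DN1 has 1 and DN2b versus DN1 has 3 at negative values, and DN2b versus DN2a has none.

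DN2b versus DN2a spans the commitment step, with both stages grown in IL-7. *Lyl1*, *Hhex*, *Gfi1b*, *Bcl11a* and *Mycn* had DN2b libraries below both DN2a libraries, 5 of the 9 beside 15.8% of tested genes. *Tal1* (log2FC -0.135) and *Lmo2* (-0.498) were lower with overlapping libraries. By edgeR's adjusted p, 0 of the 9 and 0% of tested genes were called, while 335 genes (2.74%) and 3 of the 9 had an unadjusted p under 0.05. Those 3 were *Gfi1b* (log2FC -2.43 ± 0.96), *Bcl11a* (-1.30 ± 0.49) and *Hhex* (-0.78 ± 0.33). DESeq2 called 29 genes and 0 of the 9. *Mef2c* (1.26 ± 0.76) and *Gata2* (0.22 ± 1.11) went the other way. The gap between the DN2b libraries of *Mef2c* was 9.34-fold and was exceeded by 1.55% of tested genes.

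DN2b replicate 2 held the higher level of *Mef2c* (18.1 against 1.93 CPM), *Tal1* (23.9 against 7.47 CPM) and *Lmo2* (7.16 against 1.60 CPM). *Mycn* (10.9 against 5.54 CPM), *Gata2* (4.38 against 2.27 CPM), *Bcl11a* (9.31 against 6.60 CPM) and *Hhex* (37.7 against 29.1 CPM) were also higher there. *Lyl1* and *Gfi1b* were lower there. That library had the fewest gene reads (12354635) and the largest share of reads with more than 1 alignment (30.1%). It is also the library with the endothelial markers, among them *Kdr* at 42.2 CPM, *Tie1* at 24.2 CPM, *Tek* at 16.0 CPM and *Cdh5* at 13.5 CPM, against at most 0.334 CPM for each of these 4 genes in DN2b replicate 1. Their part in these levels was not tested. Without that library *Mef2c* had a log2FC of -1.11 in DN2b versus DN2a, and of -4.86 in DN2b versus DN1 (adjusted p = 0.0241). *Lmo2* then had a log2FC of -1.94 in DN2b versus DN2a, where it had -0.50 with all libraries, and of -5.96 in DN2b versus DN1 (adjusted p = 0.0241). Without DN2b replicate 1 it had -3.80 in DN2b versus DN1 (adjusted p = 0.0488). *Tal1* without DN2b replicate 2 had a log2FC of -2.07 in DN2b versus the control and of -3.73 in DN2b versus DN1.

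DN2a and DN2b versus the no Notch control, which use the same controls as DN1, ask how the DN2 stages differed from that culture. Notch ligand, the sort, IL-7 and the later culture day cannot be told apart there. All 12 tested macrophage and granulocyte markers were lower in DN2a (median log2FC -9.68) and DN2b (-11.1) than in the control, and the part of this in the results was not tested. In DN2a, *Mycn* (log2FC 6.87 ± 0.68, adjusted p = 0.000185) and *Gfi1b* (3.02 ± 0.77, adjusted p = 0.0114) were higher, and *Lmo2* (-4.22 ± 0.65, adjusted p = 0.0012) and *Mef2c* (-3.86 ± 0.79, adjusted p = 0.00432) were lower. These were 2 of the 9 as higher and 2 as lower, where 45.5% of tested genes were called, 21.2% as higher and 24.3% as lower. Without DN2a replicate 2, *Gfi1b* had a log2FC of 2.45 (adjusted p = 0.0832) and *Mycn* of 6.22, and without control replicate 2 they had 4.10 and 7.49. With controls D1 and D2 alone, *Gfi1b* had 2.33 (adjusted p = 0.0759). In DN2b, *Mycn* was 42.3-fold higher (log2FC 5.404 ± 0.66, adjusted p = 0.000472), while *Lmo2* was 26.3-fold lower (-4.72 ± 0.67, adjusted p = 0.000867), *Mef2c* 6.07-fold lower (-2.60 ± 0.73, adjusted p = 0.0187) and *Hhex* 1.90-fold lower (-0.93 ± 0.30, adjusted p = 0.0323). That made 1 of the 9 higher and 3 lower, where 42.5% of tested genes were called, 19.9% as higher and 22.5% as lower, so the share of the 9 was near that of all genes. The *Hhex* call in DN2b was lost in 5 of the 10 fits that left out 1 library each (log2FC between -1.12 and -0.75), and the *Mef2c* log2FC ran from -4.96 without DN2b replicate 2 to -1.74 without replicate 1. That of *Lmo2* ran from -6.15 to -3.99 without the same libraries, and that of *Mycn* was 6.04 without control replicate 2. With controls D1 and D2 alone, *Mef2c* had a log2FC of -2.54 (adjusted p = 0.0728). *Lyl1*, *Tal1*, *Bcl11a* and *Gata2* were not called against the control in either DN2 stage with all libraries. *Bcl11a* was called as higher in DN2a without control replicate 2 (log2FC 1.24, adjusted p = 0.033) or 4 (1.22, adjusted p = 0.045), and *Gfi1b* as higher in DN2b without control replicate 2 (1.67, adjusted p = 0.0277).

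Summed over the 9 genes, the level was 345 to 427 CPM in the control, 940 and 534 CPM in DN1, 236 and 304 CPM in DN2a, and 162 and 171 CPM in DN2b. To compare genes with one another, levels were divided by the length of each gene's merged exons. *Lmo2* (52.7 ± 6.21 CPM per kb, SD, n = 4) and *Lyl1* (51.5 ± 13.4) were the highest in the control and did not differ beyond their spread. *Lyl1* was the highest of the 9 in DN1 (57.1 ± 20.1 CPM per kb, n = 2), DN2a (66.5 ± 2.57) and DN2b (44.2 ± 18.6), followed in DN2b by *Hhex* (6.61 ± 1.21), *Tal1* (3.58 ± 2.65), *Mycn* (2.49 ± 1.15), *Gfi1b* (2.07 ± 0.162) and *Lmo2* (2.02 ± 1.82). The levels from *Tal1* to *Lmo2* in that order differed by less than their spread. In DN1, *Lmo2* came next to *Lyl1* (46.0 ± 26.5 CPM per kb), ahead of *Hhex* (22.9 ± 1.60), *Tal1* (22.7 ± 10.2), *Gfi1b* (21.3 ± 15.2), *Gata2* (17.0 ± 19.9) and *Mycn* (14.2 ± 4.40). Neighbours in that DN1 order differed by less than their spread. The merged exons of *Mef2c* (15.7 kb) and *Bcl11a* (13.2 kb), which sum alternative transcripts, lower their per kb values.

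By position on mm10 (GENCODE vM21), *Lyl1* spans chr8:84701457-84704715 and shares 4 exon bases with the minus-strand gene *Nfix*, or 0.222% of its own. *Bcl11a* (chr11:24078056-24174123) shares 316 exon bases, 2.40%, with 2 antisense genes. *Lmo2* (chr2:103957986-103981878) overlaps 1 antisense gene without a shared exon base. The strand setting of the counting is not given in the sources used here, so reads of the shared bases cannot be told apart. *Tal1*, *Hhex*, *Mef2c*, *Gfi1b*, *Mycn* and *Gata2* overlap no annotated gene.

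Of 14 listed paralogs of the 9, 9 were tested: in DN1 versus control 3 were higher and 4 lower, and in DN2b versus DN1 2 were higher and none lower. Over all tested genes, 31.4% and 1.91% were called in these comparisons. *Gata3*, the GATA factor of T cells, stood at 11.8 and 13.8 CPM in DN1, 32.0 and 30.3 CPM in DN2a, and 30.8 and 55.9 CPM in DN2b, against at most 0.231 CPM in the control. It rose from DN1 to DN2b by a log2FC of 1.76 ± 0.36 (adjusted p = 0.0426). *Bcl11b*, the zinc finger factor of T lineage commitment, stood at 2.26 and 1.30 CPM in DN1, 13.5 and 10.5 CPM in DN2a, and 25.9 and 19.4 CPM in DN2b. It rose by a log2FC of 3.66 ± 0.60 (adjusted p = 0.0205), where *Bcl11a* fell by 3.44 on the log2 scale. The differences between paralogs were not tested.

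*Gfi1*, the paralog of *Gfi1b* in lymphoid and granulocytic cells, stood at 20.3 to 194 CPM in the control and was lower in DN1 (10.4 and 11.8 CPM, log2FC -3.09 ± 0.77, adjusted p = 0.0153), with 24.2 and 26.4 CPM in DN2b. *Myc* stood at 198 and 221 CPM in DN1 and 124 and 162 CPM in DN2b, against 49.6 to 147 CPM in the control, and was called in no comparison. *Gata1* was higher in DN1 (log2FC 4.52 ± 1.28, adjusted p = 0.0259), with the level in DN1 replicate 1 given above. *Mef2a* (-1.62 ± 0.39, adjusted p = 0.0136), *Mef2d* (-0.99 ± 0.29, adjusted p = 0.0279) and *Lmo4* (-1.20 ± 0.32, adjusted p = 0.0206) were lower in DN1 than in the control. *Lmo1*, a T cell leukemia oncogene like *Lmo2*, stood at 6.09 to 9.07 CPM in the control, 1.89 and 5.08 CPM in DN1, 11.4 and 10.5 CPM in DN2a, and 5.94 and 3.18 CPM in DN2b and was called in no comparison.

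**Figure D4:**
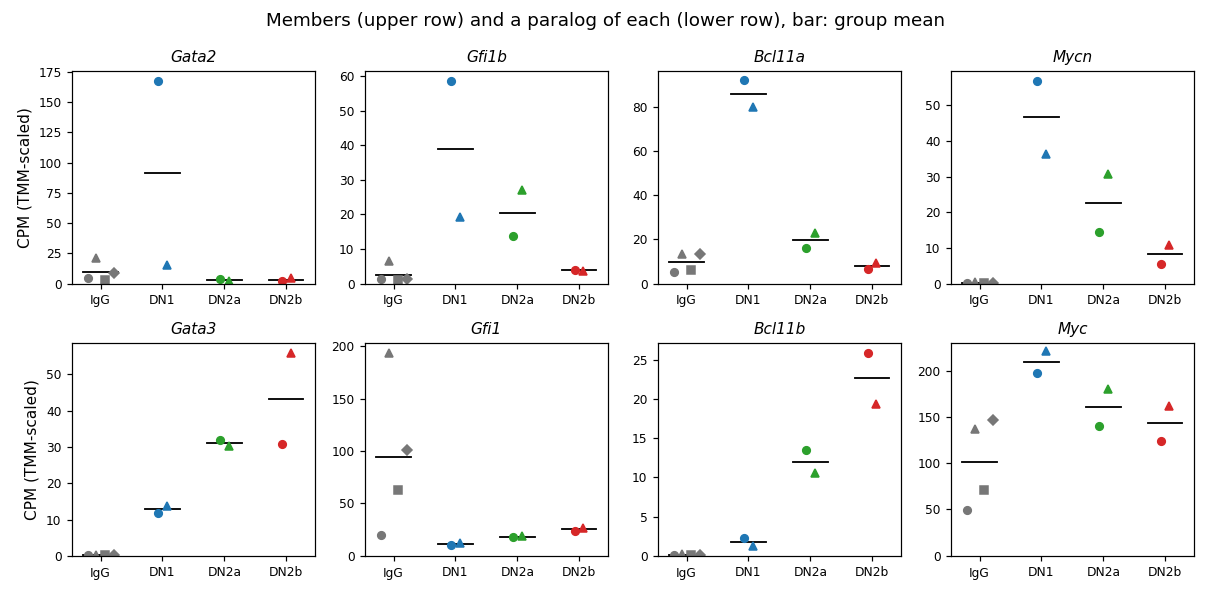
TMM-scaled CPM (linear axes, from 0) in every library of *Gata2*, *Gfi1b*, *Bcl11a* and *Mycn* (upper row) and of *Gata3*, *Gfi1*, *Bcl11b* and *Myc* (lower row), with the bar at the group mean and marker shapes for replicates. From DN1 to DN2b, *Bcl11a* went down while *Bcl11b* went up, to 25.9 and 19.4 CPM, and *Gata3* reached 30.8 and 55.9 CPM.

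Partners of TAL1, LYL1 and LMO2 were called in DN1 against the control as higher in 9 of 13 cases and lower in 1, beside the 14.3% of all tested genes called as higher. Without DN1 replicate 1, 2 of the 13 were called in either direction, and with controls D1 and D2 alone 6 of the 13. The higher ones were *Ldb1*, the LMO2-binding adaptor (log2FC 0.99 ± 0.21, adjusted p = 0.00815), its stabilisers *Ssbp2* (1.42 ± 0.26, adjusted p = 0.0044) and *Ssbp3* (1.72 ± 0.28, adjusted p = 0.00247), the E protein genes *Tcf3* (1.26 ± 0.36, adjusted p = 0.0281) and *Tcf12* (0.83 ± 0.28, adjusted p = 0.0478), the corepressor genes *Cbfa2t3* (1.80 ± 0.43, adjusted p = 0.0132) and *Kdm1a* (0.80 ± 0.22, adjusted p = 0.0249), the Ets gene *Erg* (1.45 ± 0.36, adjusted p = 0.0156) and *Zfpm1*. *Zfpm1*, which encodes the GATA cofactor FOG1, stood at 150 CPM in DN1 replicate 1 and 11.5 CPM in replicate 2. The lower one was *Fli1* (-1.29 ± 0.35, adjusted p = 0.0212), another Ets gene. In DN2b versus control 5 were higher and 1, the corepressor gene *Rcor1* (-0.97 ± 0.26, adjusted p = 0.0163), was lower, and in DN2a versus control 6 were higher and 2 lower. Over all tested genes 42.5% were called in DN2b (19.9% as higher) and 45.5% in DN2a (21.2% as higher), so the 6 of 13 called in DN2b were near the share of all genes. In DN2b versus DN1, edgeR called 0 of the 13 (3 at an unadjusted p under 0.05, beside 13.9% of tested genes). DESeq2 called 2 of the 13 there, beside 820 of 12192 genes. *Ldb1* stood at 183 and 119 CPM in DN1 and 124 and 107 CPM in DN2b, and *Ssbp3* at 124 and 77.2 CPM in DN1 and 151 and 96.2 CPM in DN2b, the stage in which *Lmo2* was at 1.60 and 7.16 CPM.

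Among 15 tested genes of 16 other stem and progenitor regulators, 2 were higher and 3 lower in DN1 than in the control. That is near the 31.4% of all tested genes called there. In DN2b, 2 were lower than in DN1, beside 0.892% of tested genes. Those 2 were *Spi1*, which encodes the myeloid and lymphoid factor PU.1 (log2FC -2.69 ± 0.28, adjusted p = 0.0034), and *Meis1*, a homeobox factor of stem cells named after its value was seen (-2.56 ± 0.51, adjusted p = 0.04). *Myb*, a regulator of progenitors and thymocytes, stood at 417 and 271 CPM in DN1 and 496 and 397 CPM in DN2b, and *Nfe2*, a megakaryocyte-erythroid factor, at 218 and 144 CPM in DN1 and 119 and 127 CPM in DN2b. Among 11 tested of 12 T cell commitment genes, 9 were higher in DN1 than in the control and 6 were higher in DN2b than in DN1, with none lower in either. Over all tested genes, 14.3% were called as higher in DN1 versus control, and 1.91% in either direction in DN2b versus DN1. *Tcf7*, the T cell factor TCF1, stood at 238 and 250 CPM in DN1, *Cd3g* at 30.4 and 95.9 CPM and the kinase gene *Lck* at 33.2 and 76.2 CPM. Levels of *Bcl11a*, *Mycn*, *Hhex* and *Tal1* were thus highest in the DN1 libraries in which these T cell genes were already above every control.

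The genes most like each regulator, by Pearson's r of log2(CPM + 1) over the 10 libraries, are given as a description, since libraries of a group share the group's level. They were *Itga2b*, a megakaryocyte and progenitor integrin, for *Gfi1b* (r = 0.978), *Gp1ba*, a platelet glycoprotein, for *Gata2* (r = 0.956), *Cdca8*, a mitotic gene, for *Lyl1* (r = 0.955), *Bmyc* for *Bcl11a* (r = 0.946) and *Ick* for *Mycn* (r = 0.983). They were *Gm7694* for *Lmo2* (r = 0.976), *Map4k5* for *Mef2c* (r = 0.961), *Ralgps1* for *Tal1* (r = 0.942) and *Sh2d1b1* for *Hhex* (r = 0.912). Within the 9, r was highest between *Lmo2* and *Mef2c* (0.928), *Gfi1b* and *Mycn* (0.893), *Gfi1b* and *Bcl11a* (0.86) and *Tal1* and *Hhex* (0.806), and for *Lyl1* it ran from -0.31 to 0.39.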

How the data were processed

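RNA-seq libraries of 10 mouse cell samples were analysed, grouped by their labels. The authors sequenced TruSeq stranded total RNA, aligned 36 bases of each read to mm10 with TopHat2 and deposited raw counts per gene, tallied with HTSeq 0.6.1p1 (htseq-count, intersection-strict). The annotation and strand setting are not given in the sources used here. Reads with more than 1 alignment, 16.4% to 30.1% of those tallied, went to no gene. The 5 summary lines per library were dropped, no library was a copy of another, and 0 columns were left unused.

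One edgeR 4.0.16 quasi-likelihood fit (R 4.3.3) held all 10 libraries in 4 groups, with TMM scaling (factors 0.858 to 1.19), prior count 0.125 and a filter that kept genes reaching 1 CPM in 2 libraries or more. P-values were adjusted by Benjamini-Hochberg over 12221 genes. They measure the spread between these libraries. The standard error is the log2FC divided by the root of F, and CPM values are TMM-scaled. DESeq2 1.42.0, library size scaling, no filter, filterByExpr, a prior count of 2, fewer groups, subsets of controls, a replicate block and leaving out each library were the alternatives. Where this left a stage with 1 library, that library was assumed to vary like the other groups. Leaving out DN1 replicate 1 with DN2b replicate 2, and the endothelial list, were added after seeing the data. The scripts were tested on simulated data.

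The 9 genes and all lists were chosen with earlier results of these data known. By rule, the text names the 9 genes, tested paralogs, partners called in any comparison, *Kit*, *Cd44* and *Il2ra*, the 3 genes of highest mean CPM in every other list and the gene most correlated with each of the 9 (mean of at least 5 CPM). DN libraries were numbered by the year of their label dates. DN2a and DN2b libraries of a number share the same date, and their replicate differences correlated with r = 0.452 across genes. Control labels D1, D2, R1 and R2 became replicates 1 to 4 and are not explained in the sources used here.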

Additional observations from a re-analysis of the deposited data

Results flagged for a closer look

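*Gfi1b* was flagged in the no Notch control because replicate 2 (6.59 CPM) stood far from the other 3 libraries (0.939 to 1.40 CPM). Its gap to the next library took 0.918 of the group's range, more than Dixon's 95% critical value for 4 libraries. Chance flags about 1 in 20 groups, and all 9 genes were looked at in this group. Without that library, *Gfi1b* had a log2FC of 1.67 in DN2b versus control (adjusted p = 0.0277), against 0.59 (adjusted p = 0.572) with it. In the same library *Gata1* (5.07 CPM), *Itga2b* (32.7 CPM) and *Gata2* (21.1 CPM) were also the highest of the control, and their part in the *Gfi1b* level was not tested.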

How the results depend on the processing

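Of 1026 refitted values of the 9 genes, 909 kept their direction and side of the threshold, 64 lost a call, 23 gained 1 and 30 changed sign, none of them called in the first place. These values include the fit with a prior count of 2, which alters the log2FC but not the p-values, so its calls could not change. The calls of *Mycn*, *Bcl11a* (DN1), *Lmo2* (DN2a and DN2b) and *Mef2c* (DN2a) against the control were kept in every refit. With 1 library left out, the members of the 9 that were called ranged from 3 to 6 in DN1 versus IgG, 3 to 5 in DN2a versus IgG, 3 to 4 in DN2b versus IgG, 0 to 2 in DN2a versus DN1, 0 to 4 in DN2b versus DN1 and 0 to 0 in DN2b versus DN2a. Genes called ranged from 1867 to 4163, 2686 to 6016, 2683 to 5674, 0 to 229, 51 to 383 and 0 to 1. In DN2a versus DN1, DN2b versus DN2a and DN2b versus DN1, DESeq2 called 467, 29 and 820 genes, with 5, 0 and 8 members. Without a filter 101 and 1 genes passed in the first 2 of these, and with only the groups compared 25 in DN2a versus DN1 and 80 (1 member) in DN2b versus DN1. Controls D1 and D2 alone gave 2329 genes and 3 members in DN1 versus IgG and 3264 genes in DN2b versus IgG. Without both DN1 replicate 1 and DN2b replicate 2 (added after seeing the data), 2 members passed in DN1 versus IgG, 5 genes in DN2a versus DN1 and 0 genes and 0 members in DN2b versus DN1 (edgeR, 922 genes and 6 members at an unadjusted p under 0.05). The causes were not tested.

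With a replicate block over the 6 DN libraries, 58, 0 and 233 genes and 0, 0 and 2 members passed in DN2a versus DN1, DN2b versus DN2a and DN2b versus DN1. At an unadjusted p under 0.05, 6, 4 and 8 members passed with the block, beside 1574, 521 and 2260 of 11316 genes. The same libraries without the block gave 32 genes and 0 members in the first and 187 genes and 2 members in the last. *Lmo2* had an adjusted p of 0.177 in DN2a and 0.0829 in DN2b versus DN1 with the block, and of 0.137 and 0.0537 without it. DN1 shares a number but no date with the DN2 libraries, and the differences correlated with r = 0.063 (DN2a) and 0.189 (DN2b).

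Scaling to library size shifted the median of all genes by 0.27 in DN1 versus IgG, -0.20 in DN2a versus DN1 and -0.19 in DN2b versus DN1. It gave *Lmo2* 0.10 and *Mef2c* 0.14 in DN1 versus IgG, so the direction of those 2 depends on the scaling. Controls D1 and D2 alone gave *Lyl1* 0.08 and *Gfi1b* -0.084 in DN2b versus IgG, and R1 and R2 alone *Lyl1* -0.13 in DN1 versus IgG and *Hhex* 0.078 in DN2a versus IgG. Without both DN1 replicate 1 and DN2b replicate 2, the signs turned for *Lyl1* in DN1 versus IgG (-0.25), DN2b versus IgG (0.16) and DN2b versus DN1 (0.41), *Mef2c* in DN1 versus IgG (0.20) and DN2b versus DN2a (-1.11), *Gfi1b* in DN2a versus DN1 (0.08) and *Gata2* in DN2b versus DN2a (-0.32). With 1 library left out, the log2FC that changed sign ranged as follows. In DN1 versus IgG it ran from -0.27 to 0.48 for *Lyl1*, -0.95 to 0.30 for *Lmo2* and -0.47 to 0.19 for *Mef2c*, and in DN2a versus IgG from -0.38 to 0.055 for *Hhex*. In DN2b versus IgG it ran from -0.73 to 0.16 for *Lyl1*, and in DN2a versus DN1 from -0.10 to 0.63 for *Lyl1* and -1.52 to 0.085 for *Gfi1b*. In DN2b versus DN2a it ran from -1.20 to 0.48 for *Tal1*, -1.94 to 0.22 for *Lmo2*, -1.11 to 2.12 for *Mef2c* and -0.33 to 0.73 for *Gata2*, and in DN2b versus DN1 from -0.88 to 0.044 for *Lyl1*.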

Other observations

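Of 10 stem and progenitor surface genes, 4 were higher and 1 lower in DN1 than in the control, beside 31.4% of all tested genes called. *Cd34* stood at 363 and 990 CPM in DN1 and 157 and 165 CPM in DN2a, and *Cd48* at 80.6 and 203 CPM in DN1 and 366 and 278 CPM in DN2a. *Ly6a*, which encodes SCA1, stood at 342 to 1080 CPM in the control and 103 and 256 CPM in DN1. All 12 tested macrophage and granulocyte markers were lower in each DN stage than in the control, *Lyz2* standing at 6209 to 13130 CPM there against at most 225 CPM in DN1. *Ngp*, a granule protein gene, stood at 1653 to 14730 CPM in the control against 428 and 6.28 CPM in DN1, and *S100a8*, a calprotectin subunit gene, at 3987 to 12010 CPM against 516 and 13.6 CPM.

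Of 9 tested erythroid and megakaryocyte markers, 3 were higher and 2 lower in DN1 than in the control, and of 12 mast cell and basophil markers 5 were higher and 3 lower. Over all tested genes, 31.4% were called in that comparison. *Itga2b* stood at 331 and 121 CPM in DN1 and 17.2 and 25.0 CPM in DN2b, while *Pf4*, a platelet chemokine, stood at 219 to 947 CPM in the control and 45.5 and 1.64 CPM in DN1. *Ppbp*, another platelet chemokine gene, stood at 29.6 to 149 CPM in the control and 5.26 and 0.498 CPM in DN1. In DN2b versus DN1, 4 of the 12 mast cell and basophil markers were lower, beside 0.892% of tested genes. Of 4 tested dendritic cell markers 3 were lower in DN1 than in the control, with *Irf8* at 5.78 and 4.39 CPM in DN1 against 111 to 168 CPM, *Bst2* at 53.8 and 58.5 CPM against 114 to 252 CPM and *Xcr1* at 0.111 and 0 CPM against 0.84 to 2.58 CPM. Of 3 tested B cell markers 1 was higher and 1 lower, the latter *Blnk*, listed at 0 and 0.0498 CPM in DN1. The higher one was *Vpreb1*, at 0.519 and 0.997 CPM in DN1 against at most 0.231 CPM in the control, and *Cd79b* stood at 8.12 and 12.1 CPM against 5.75 to 19.6 CPM.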
